A study of Mus musculus with 36 samples.

Results

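Collagen chain genes encode the alpha chains of the collagens, and were taken as every protein-coding gene whose symbol is Col, a number, the letter a and a number. The rule found 44 genes of the 38942 in the deposited table, and all 44 entered the tests. By chain type, 11 were fibrillar, 9 formed basement membrane or hexagonal networks, 6 were of type VI, 9 were fibril-associated (FACIT) and 9 were transmembrane, multiplexin or other chains. RNA was sequenced from mouse bone marrow monocyte cultures in 12 groups of genotype, stage and sorted Ly6C subset. The genotypes were labelled Irf8_cKO (cKO below, a conditional knockout of the transcription factor gene Irf8) and WT. The stages were osteoclast cultures (OC), which received RANKL at 40 ng/ml beside MCSF at 20 ng/ml over 4 days, and bone marrow macrophages (BMM), in MCSF at day 0. The subsets were Ly6C-negative (Ly6Cneg), Ly6Chi and Ly6Cint cells, Ly6C being a surface protein that divides blood and marrow monocytes. Per the series' design all 12 groups had MCSF, and RANKL, the cytokine that drives osteoclast formation, was added to the OC groups alone. The labels name no promoter for the Cre and no age of the mice. Of 36 labelled samples, 34 had values, so the WT Ly6Cneg groups had 2 libraries each and the other 10 groups had 3. The other 2 samples, 1 WT Ly6Cneg BMM and 1 WT Ly6Cneg OC, were not analysed here.

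Collagens are trimers of alpha chains that are hydroxylated and folded in the endoplasmic reticulum, secreted, trimmed of their propeptides and cross-linked outside the cell. Fibrillar types such as I, III and V make the fibres of bone, skin and tendon, type IV makes basement membrane sheets, and type VI makes beaded filaments around cells. In bone, type I collagen is made by osteoblasts, while osteoclasts dissolve it with acid, cathepsin K and matrix metalloproteinases.

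Whole reads were recovered from the deposited log2 values, and gave 20.4 to 55.7 M reads per library. Levels are given as CPM (a gene's reads over the library's total in M reads) or, where genes are compared with each other, as CPM per kilobase of exon (RPKM). Differences are on the deposited log2 scale, which is flat near 0 reads and so understates the change of low genes. The tests are limma's moderated test over all genes with Benjamini-Hochberg adjustment, and a gene was called at an adjusted p under 0.05. Nothing in the labels ties replicates to separate mice, and the tests therefore see only library-to-library spread, which may be technical. In bulk RNA, fewer cells of a type and less RNA per cell cannot be told apart. Total Irf8 was higher, not lower, in libraries labelled cKO, at 81.0 to 316 CPM against 24.1 to 117 CPM in WT osteoclast cultures. A gene total does not test for the loss of an exon, so every cKO direction below rests on the label. Libraries labelled cKO also held 31.3 to 55.9 CPM of the Y-linked gene Ddx3y, against 0.0196 to 0.352 CPM in WT libraries. The X-linked gene Xist had 114 to 379 CPM in cKO and 339 to 1091 CPM in WT libraries. Mice of both sexes were used, but every WT library had next to no Ddx3y, while every cKO library held both Ddx3y and Xist. The sex mix of the libraries and the genotype therefore cannot be told apart here.

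The upstream bases of 3 chain genes are shown first. All 3 encode fibrillar or type VI chains and were called higher in cKO than in WT Ly6Cneg OC, and other such chains had larger differences. Each run gives the 250 bases before RefSeq's start site in GRCm38.p6, the assembly of build mm10, read 5′ to 3′ on the gene's own strand. In each the bases after the start matched a transcript of the gene, and the window holds no exon base of GENCODE M21. The Col27a1 window lies inside the gene as annotated there, which starts at 63214004. Capitals mark GGGCGG, the letters of the GC box, searched on both strands.
Col5a1 (chr2:27886175-27886424, + strand): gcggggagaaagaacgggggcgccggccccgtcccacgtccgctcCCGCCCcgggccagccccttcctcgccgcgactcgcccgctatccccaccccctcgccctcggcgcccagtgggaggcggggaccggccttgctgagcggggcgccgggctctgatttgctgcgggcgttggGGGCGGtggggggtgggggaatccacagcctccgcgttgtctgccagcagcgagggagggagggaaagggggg
Col6a3 (chr1:90843972-90844221, - strand): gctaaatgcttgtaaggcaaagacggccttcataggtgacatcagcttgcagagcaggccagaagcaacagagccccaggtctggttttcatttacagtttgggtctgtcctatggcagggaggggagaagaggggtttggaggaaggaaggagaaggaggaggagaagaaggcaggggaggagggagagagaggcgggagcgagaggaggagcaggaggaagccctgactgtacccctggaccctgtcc
Col27a1 (chr4:63215162-63215411, + strand): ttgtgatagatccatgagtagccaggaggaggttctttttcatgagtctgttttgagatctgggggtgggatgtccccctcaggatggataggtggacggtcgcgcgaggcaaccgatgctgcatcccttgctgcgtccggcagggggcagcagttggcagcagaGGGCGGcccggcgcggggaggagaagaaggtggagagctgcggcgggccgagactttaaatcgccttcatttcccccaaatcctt
GGGCGG was in 22 of 38 windows found for 35 of the 44 chain genes, and in 32.7% of all 32851 RefSeq mouse promoters. The windows of Col5a1 and Col27a1 held it and that of Col6a3 did not. CCAAT, the letters of the CCAAT box, was in 13 of the 38 and in 33.8% of all, and TGANTCA, the letters bound by AP-1 factors, was in 1 of the 38, that of Col6a1, and in 6.75% of all. GGAAA, the core bound by NFAT factors, was in 18 of the 38 and in 55.6% of all, and TATAAA was in 5 of the 38 and in 12.4% of all. A match of letters is a description and not a binding site, and 18 of the 38 windows hold annotated exon bases.

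Type I collagen took most of the collagen chain reads in cKO Ly6Cneg osteoclast cultures and a minor share in the other 11 groups. The summed level of all 44 genes was 589, 753 and 793 CPM in the 3 cKO Ly6Cneg OC libraries, against 167 and 159 CPM in the 2 WT Ly6Cneg OC libraries. The sum was 153 to 249 CPM in the other osteoclast cultures, 107 to 173 CPM in cKO Ly6Cneg BMM and 37.5 to 63.0 CPM in the other BMM. Col1a1 and Col1a2 together took 55.9 to 65.8% of the chain reads in cKO Ly6Cneg OC, 2.42 and 6.72% in WT Ly6Cneg OC, and 0.0427 to 0.285% in the Ly6Chi and Ly6Cint osteoclast cultures. Per kilobase of exon, the chain gene with the highest mean level was Col1a1 in cKO Ly6Cneg OC, at 34.6 RPKM, and Col18a1 in cKO Ly6Chi OC, at 6.87 RPKM, and in all 6 WT groups. It was Col27a1 in cKO Ly6Cint OC, at 6.82 RPKM, and Col4a5 in cKO Ly6Cneg and Ly6Chi BMM, at 4.02 and 1.65 RPKM. In cKO Ly6Cint BMM Col11a2 and Col4a5 were level, at 1.30 and 1.28 RPKM.

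**Figure D1:**
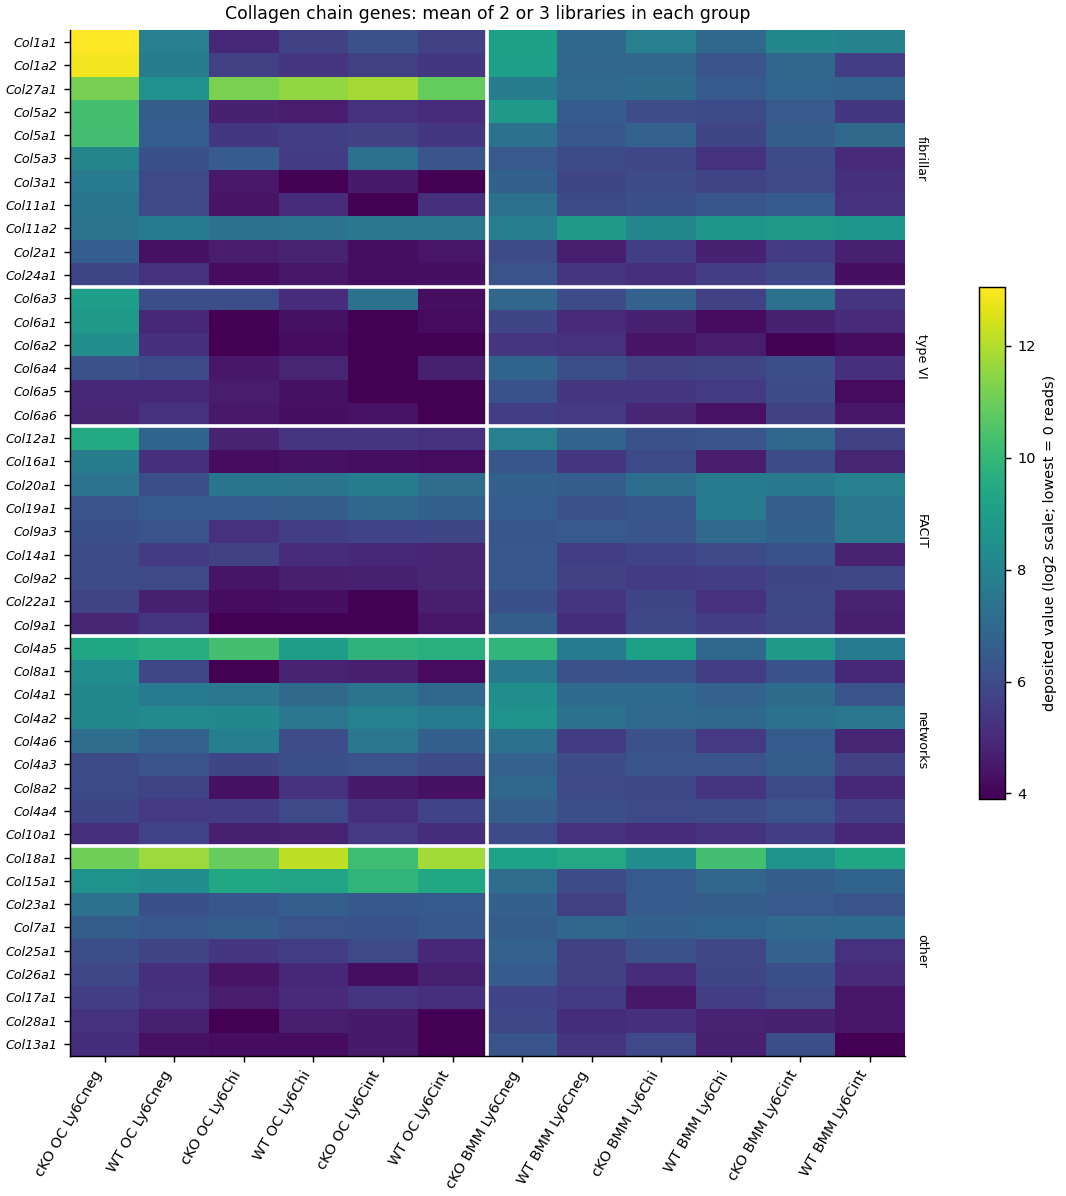
Mean deposited log2 value of each of the 44 collagen chain genes (rows, ordered by chain type) in each of the 12 groups (columns, osteoclast cultures left and macrophages right, n = 2 or 3 libraries). Most fibrillar rows and the Col6a1, Col6a2 and Col6a3 rows are brightest in the cKO Ly6Cneg osteoclast column. Col18a1, Col15a1 and Col27a1 are bright in most osteoclast columns.

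To say which chains carry signal, each gene's mean RPKM was set against the 99th percentile of 902 olfactory receptor genes of the same libraries, a threshold chosen after the data were seen. By that measure 26 of the 44 chain genes carried signal in cKO Ly6Cneg OC and 11 in WT Ly6Cneg OC. In the other osteoclast cultures 13 to 18 did, and in BMM 7 to 15. Col4a2, Col4a5, Col11a2 and Col18a1 were above it in all 12 groups. Col2a1, Col3a1, Col6a1, Col6a2, Col9a2, Col11a1 and Col16a1 were above it in cKO Ly6Cneg OC alone. The threshold was 0.0631 RPKM there, 0.101 RPKM in WT Ly6Cneg OC and 0.233 RPKM in cKO Ly6Cneg BMM, so this need not mean a higher level. Col11a1 had 69, 100 and 53 reads in cKO Ly6Cneg OC and 60, 52 and 42 in cKO Ly6Cneg BMM. Col9a2 had 7, 10 and 12 reads against 26, 10 and 13, and 10 and 13 in WT Ly6Cneg OC. Col6a1 had 179, 232 and 649 reads against 10, 6 and 4 in cKO Ly6Cneg BMM. In no group was it passed by 13 genes, which were Col4a4, Col6a4, Col6a5, Col6a6, Col9a1, Col13a1, Col14a1, Col17a1, Col22a1, Col24a1, Col25a1, Col26a1 and Col28a1. The olfactory receptor level itself differed between groups, from a mean pooled RPKM of 0.00274 in cKO Ly6Chi OC to 0.0560 in cKO Ly6Cneg BMM. Its part in these counts and lists was not tested.

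The genotype comparison in Ly6Cneg osteoclast cultures asked which chains differ with the Irf8 label. Of the 44 chain genes 17 were higher in cKO than in WT cultures and 1 was lower, with 26 not called. Of all genes tested 17.1% were called in this comparison, 9.53% higher and 7.52% lower. The median difference was 0.51 over the chain genes and -0.00 over all genes. By type, 9 of 11 fibrillar, 3 of 6 type VI, 3 of 9 FACIT and 1 of 9 network chain genes rose, and of the other 9 chain genes 1 rose and 1 fell. The count of chain genes called was 16 to 19 when each library was left out in turn.

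Type I collagen is a heterotrimer of the Col1a1 and Col1a2 products and the main protein of bone matrix. Col1a1 (chromosome 11, 94936224 to 94953042, + strand, build mm10) had 182, 257 and 242 CPM in cKO Ly6Cneg OC, against 6.37 and 1.89 CPM in WT Ly6Cneg OC. It had 0 to 0.372 CPM in all 12 Ly6Chi and Ly6Cint osteoclast libraries. The cKO libraries lay far above all others with no overlap, and the 2 WT Ly6Cneg libraries lay above every Ly6Chi and Ly6Cint osteoclast library but differed from each other. The cKO minus WT difference was 5.17 ± 0.42 (SE, adjusted p = 7.4e-10, limma), and the pooled CPM was 56.4-fold higher, or 36.1 to 122-fold with each library left out in turn. Col1a2 (chromosome 6, 4504814 to 4541544, + strand) had 170, 239 and 201 CPM in cKO Ly6Cneg OC, against 4.82 and 1.95 CPM in WT Ly6Cneg OC. Its order over the libraries was alike, with the groups apart, and it differed by 5.13 ± 0.30 (SE, adjusted p = 1.3e-14, limma), or 61.3-fold in pooled CPM and 42.6 to 105-fold with each library left out. For both folds the lowest value came without WT replicate 2 and the highest without WT replicate 1. Per kilobase of exon, the level of Col1a1 over that of Col1a2 was 2.03, 2.04 and 2.29 in cKO Ly6Cneg OC and 2.5 and 1.83 in WT Ly6Cneg OC, and the ranges overlapped.

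**Figure D2:**
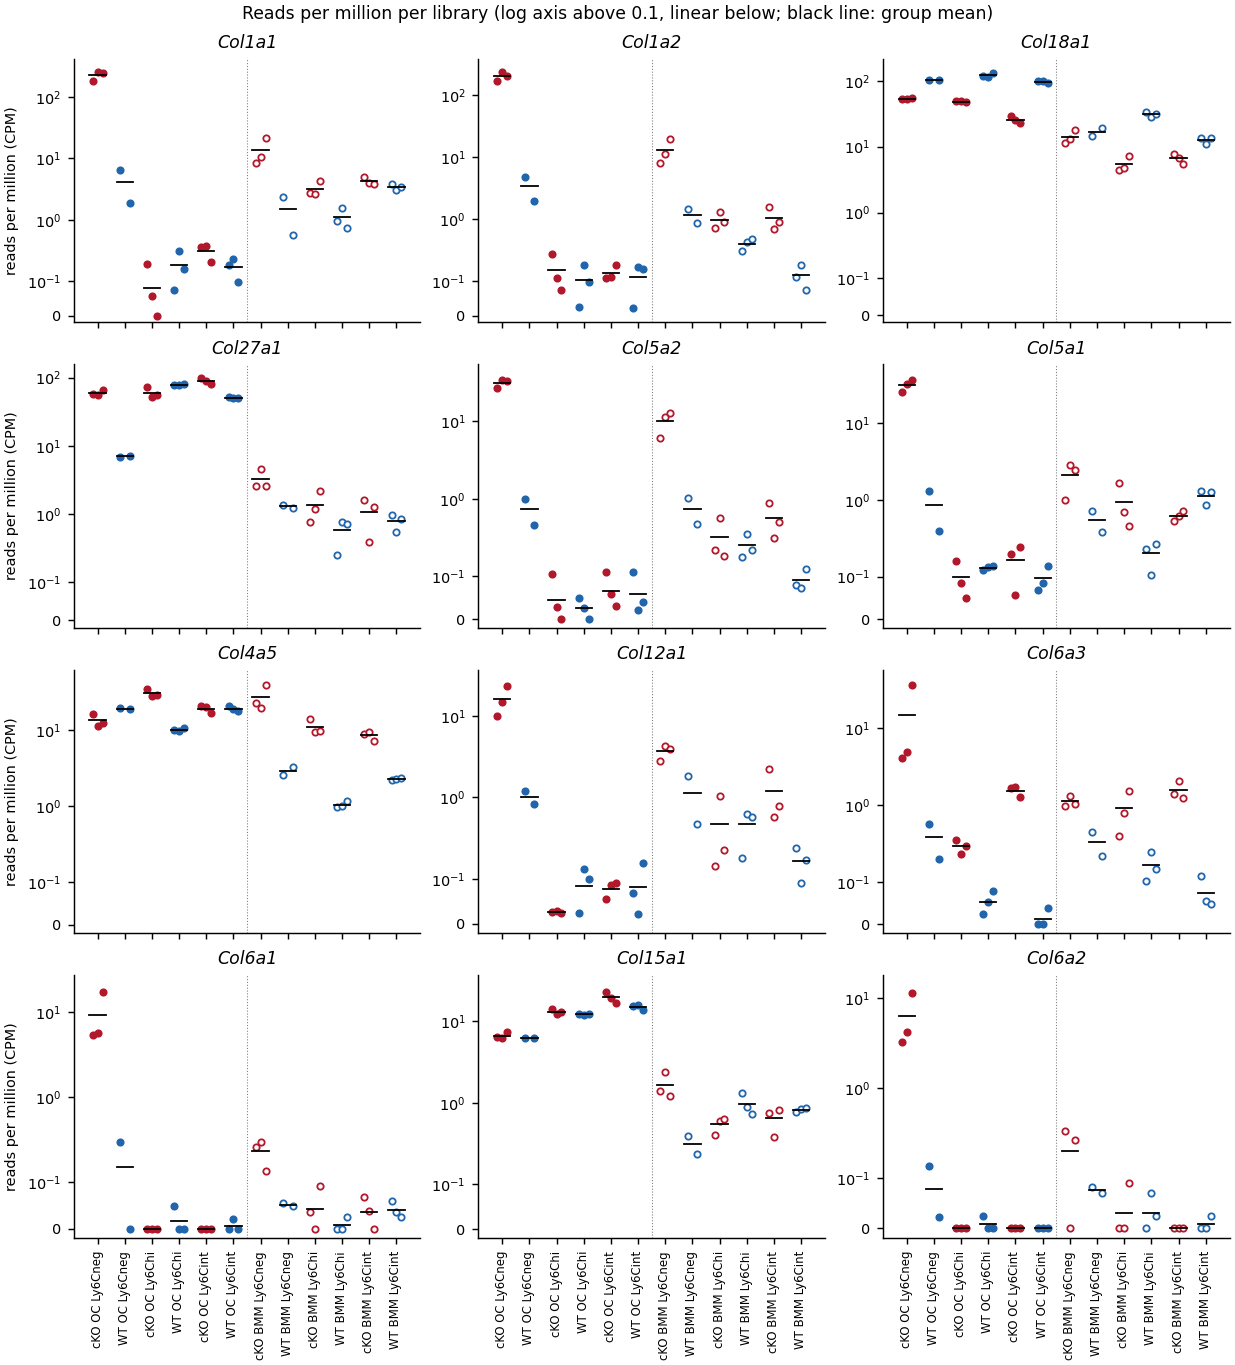
CPM of the 12 chain genes with the highest mean in Ly6Cneg osteoclast cultures (each panel 1 gene, each point 1 library, red cKO and blue WT, filled osteoclast cultures and open macrophages, black line the group mean, axis logarithmic above 0.1 CPM). For Col1a1 the 3 cKO Ly6Cneg osteoclast libraries sit between 182 and 257 CPM and every other osteoclast library is at or under 6.37 CPM.

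Type V collagen sits inside type I fibrils and sets their diameter. Its gene Col5a1 (chromosome 2, 27886425 to 28039514, + strand) had 25, 32.5 and 36.2 CPM in cKO Ly6Cneg OC, against 1.30 and 0.391 CPM in WT Ly6Cneg OC. Its partner Col5a2 (chromosome 1, 45374321 to 45503282, - strand) had 26.8, 34 and 33.2 CPM in cKO Ly6Cneg OC, against 1.0 and 0.456 CPM in WT Ly6Cneg OC. For both genes the groups did not overlap, and no Ly6Chi or Ly6Cint osteoclast library was above 0.241 CPM. Col5a1 differed by 3.71 ± 0.27 (SE, adjusted p = 9.8e-14, limma) and Col5a2 by 3.76 ± 0.35 (SE, adjusted p = 7.7e-11, limma). The per-kilobase ratio of Col5a1 to Col5a2 was 1.06, 1.08 and 1.23 in cKO Ly6Cneg OC. Col5a3, the less common type V chain, rose by 1.93 on the log2 scale, to 3.32 to 4.31 CPM in cKO against 0.273 and 0.456 CPM in WT cultures. Exons of Col5a1 overlap another annotated gene, and without a stated use of strand its reads cannot be told apart from that gene's.

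Col3a1, the type III chain of skin and vessel walls, was uneven. Its 3 cKO Ly6Cneg OC libraries had 0.658, 2.91 and 5.60 CPM, against 0.387 and 0.174 CPM in WT, a difference of 1.71 ± 0.49 (SE, adjusted p = 0.0098, limma). The groups did not overlap, but the lowest cKO library was close to WT. Of the cartilage chains, Col2a1 had 0.179, 0.914 and 1.39 CPM in cKO against 0.0227 and 0 CPM in WT cultures, and Col11a1 had 1.39 to 2.41 CPM against 0.182 and 0.347 CPM. These differed by 2.33 and 1.56 on the log2 scale.

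Type VI collagen is built from the Col6a1, Col6a2 and Col6a3 products and anchors cells to the matrix around them. Col6a1 (chromosome 10, 76708792 to 76726168, - strand) had 5.35, 5.58 and 17 CPM in cKO Ly6Cneg OC, against 0.296 and 0 CPM in WT Ly6Cneg OC. Col6a2, whose gene lies 85.2 kb away on the same strand, had 3.29, 4.26 and 11.3 CPM in cKO, against 0.136 and 0.0217 CPM in WT cultures. Col6a3 (chromosome 1, 90765923 to 90843971, - strand) had 4.07, 4.84 and 36 CPM in cKO, against 0.569 and 0.195 CPM in WT cultures. Replicate 3 of the cKO group was the highest library for all 3 genes, and no cKO library overlapped WT. The differences were 3.86 ± 0.51 for Col6a1 (SE, adjusted p = 1.4e-07, limma), 3.31 ± 0.52 for Col6a2 (SE, adjusted p = 3.9e-06, limma) and 2.88 ± 0.44 for Col6a3 (SE, adjusted p = 9e-06, limma). Without that library Col6a3 differed by 2.11 (adjusted p = 2.9e-06, limma), and with only the 5 compared libraries in the fit it was not called (adjusted p = 0.088, limma). Replicate 3 was also the highest cKO library for the basement membrane genes Col4a1, with 10.7 CPM against 1.76 and 3.44 CPM in the other two, and Col4a2, with 9.08 CPM against 2.15 and 2.84 CPM.

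Among the chains that bind fibril surfaces, Col12a1 (chromosome 9, 79598991 to 79718831, - strand) had 9.89, 15 and 23.1 CPM in cKO Ly6Cneg OC, against 1.21 and 0.825 CPM in WT Ly6Cneg OC, with no overlap. Its difference was 2.63 ± 0.36 (SE, adjusted p = 5.2e-07, limma). Col16a1, another FACIT chain, had 2.18 to 3.22 CPM against 0.0910 and 0.0434 CPM, and Col8a1, a network chain of vessel walls and the cornea, had 4.87 to 6.09 CPM against 0.387 and 0.130 CPM. These differed by 2.63 and 2.53 on the log2 scale. Col20a1 and Col23a1 rose by less, 1.28 and 1.19.

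Other abundant chains did not follow type I. Col18a1 (chromosome 10, 77052178 to 77166548, - strand), a basement membrane multiplexin whose end is cut off as endostatin, had 53.0, 53.0 and 55.2 CPM in cKO Ly6Cneg OC, against 101 and 102 CPM in WT Ly6Cneg OC. The cKO libraries were all below WT, and the gene fell by 0.68 ± 0.13 on the log2 scale (SE, adjusted p = 9.8e-05, limma), the 1 chain gene called lower. The same direction was seen in Ly6Chi OC, at 47.2 to 48.9 CPM in cKO against 114 to 133 CPM in WT, and in Ly6Cint OC, at 22.6 to 29 CPM in cKO against 93.4 to 100.1 CPM in WT. The differences there were -1.26 ± 0.12 (SE, adjusted p = 1.6e-10, limma) and -1.57 ± 0.12 (SE, adjusted p = 2.4e-13, limma).

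Col27a1 (chromosome 4, 63214004 to 63334991, + strand), a fibrillar chain known from growing cartilage, had 58.4, 55.7 and 66.9 CPM in cKO Ly6Cneg OC, against 6.94 and 7.08 CPM in WT Ly6Cneg OC. The WT Ly6Cneg cultures stood apart from every other osteoclast group. Ly6Chi OC had 51.7 to 72.2 CPM in cKO and 76.8 to 80.8 CPM in WT, and Ly6Cint OC had 80.9 to 97.7 CPM in cKO and 50.9 to 51.3 CPM in WT. In Ly6Cneg cultures the cKO minus WT difference was 2.68 ± 0.25 (SE, adjusted p = 5.6e-09, limma).

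Col15a1, a multiplexin related to Col18a1, had 6.34, 6.30 and 7.30 CPM in cKO Ly6Cneg OC, against 6.25 and 6.21 CPM in WT Ly6Cneg OC. The lowest cKO library was level with WT, and the difference of 0.20 ± 0.16 was not called (SE, adjusted p = 0.54, limma). Col4a5 (chromosome X, 141475385 to 141689234, + strand), a type IV chain mutated in Alport kidney disease, had 16.4, 11.3 and 12.5 CPM in cKO Ly6Cneg OC, against 19.6 and 18.8 CPM in WT Ly6Cneg OC. All cKO libraries were below WT, but the difference of -0.27 ± 0.15 was not called (SE, adjusted p = 0.28, limma). Col11a2, a fibrillar chain of cartilage and ear, had 1.61, 1.59 and 2.25 CPM in cKO, against 2.66 and 2.78 CPM in WT Ly6Cneg OC, and was not called. The WT values of Col4a1 were 2.93 and 2.93 CPM and those of Col4a2 4.50 and 6.42 CPM, inside the cKO ranges given above. The 26 chain genes not called ran from -0.58 for Col10a1 to 1.07 for Col22a1 on the log2 scale.

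In Ly6Chi osteoclast cultures 3 chain genes were higher and 1 lower in cKO than in WT, where 7.86% of all genes were called, 4.25% higher and 3.61% lower. In Ly6Cint cultures 7 were higher and 2 lower, where 14.1% of all genes were called, 8.18% higher and 5.94% lower. Under quantile normalization the Ly6Cint split was 4 higher and 3 lower. Col6a3 led the second comparison, with 1.66, 1.69 and 1.26 CPM in cKO Ly6Cint OC against 0, 0 and 0.0392 CPM in WT Ly6Cint OC. The groups were apart and the difference was 3.10 ± 0.39 (SE, adjusted p = 5.8e-07, limma), while Col6a1 and Col6a2 had at most 1 read in any of these 6 libraries. Col4a6 rose in both comparisons, by 1.78 in Ly6Chi and 0.82 in Ly6Cint cultures on the log2 scale.

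**Figure D3:**
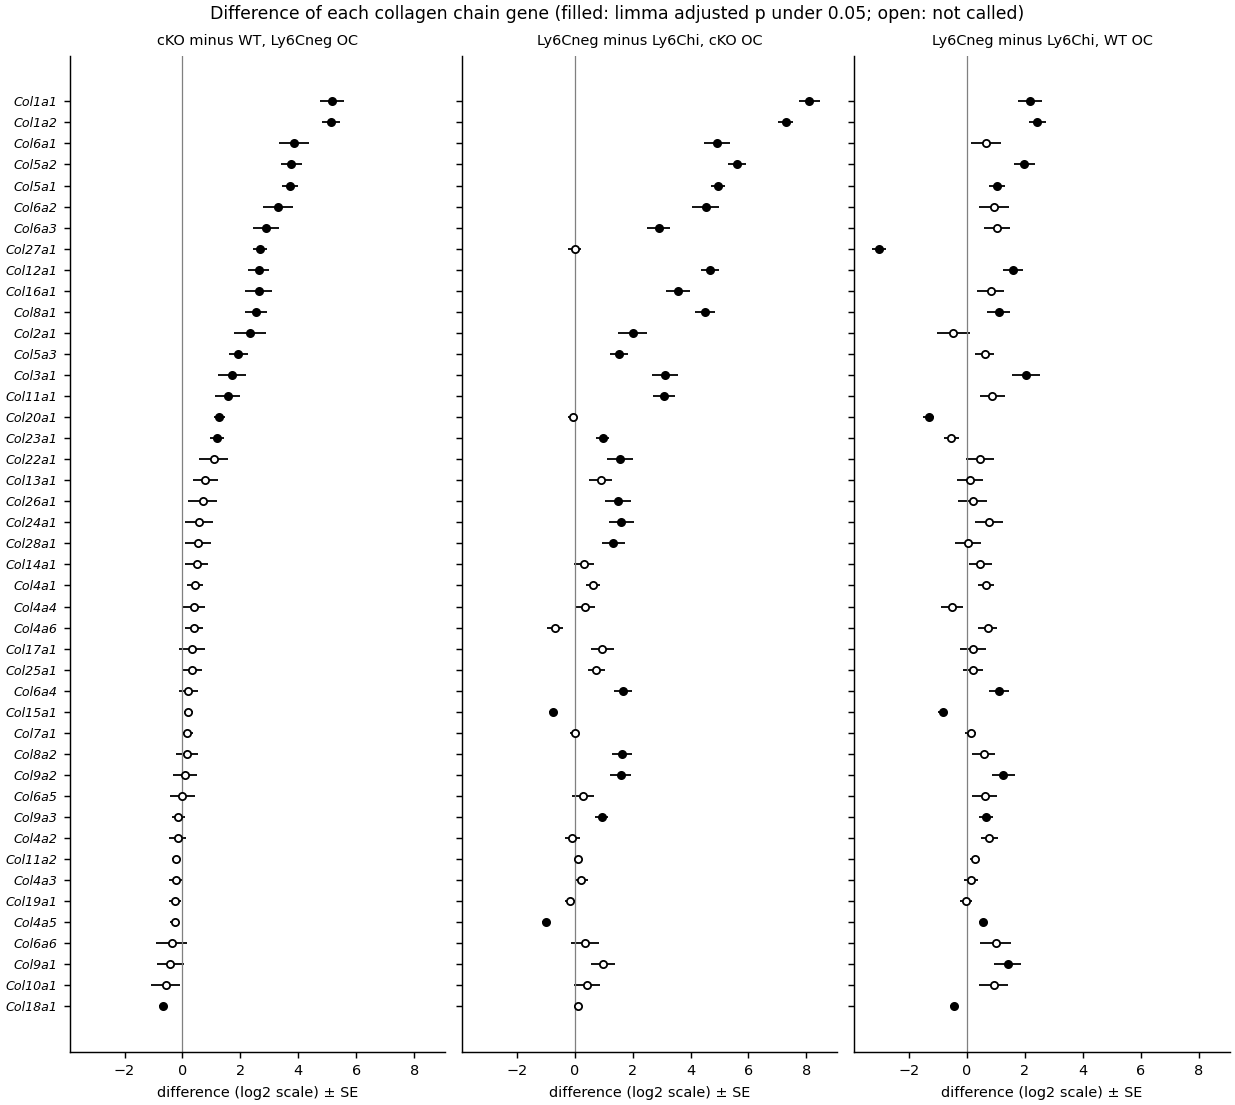
Log2 difference with its SE for each of the 44 chain genes (rows), in 3 panels that show cKO minus WT in Ly6Cneg osteoclast cultures and Ly6Cneg minus Ly6Chi in cKO and in WT osteoclast cultures (filled points called at an adjusted p under 0.05, limma). Col1a1 is at 5.17, 8.10 and 2.18 in the 3 panels, while Col27a1 is at 2.68, -0.01 and -3.04.

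Between subsets of cKO osteoclast cultures, the genes higher in Ly6Cneg cultures were led by type I, V, VI and XII chains. Against Ly6Chi 23 chain genes were higher and 2 lower, where 23.5% of all genes were called, 14.4% higher and 9.08% lower. The median difference was 0.97 over the chain genes and 0.17 over all genes. Col1a1 differed by 8.10 ± 0.38 (SE, adjusted p = 1.7e-14, limma) and Col1a2 by 7.28 ± 0.27 (SE, adjusted p = 1.3e-19, limma), and next came Col5a2 at 5.60, Col5a1 at 4.95, Col6a1 at 4.92 and Col12a1 at 4.67 on the log2 scale. Col6a1, Col6a2 and Col8a1 had 0 reads in all 3 cKO Ly6Chi OC libraries, so that with 3 reads taken as the limit over the group their pooled CPM was at least 354-fold, 240-fold and 203-fold higher in Ly6Cneg OC. Without replicate 3 of cKO Ly6Cneg OC those of Col6a1 and Col6a2 were at least 207-fold and 145-fold, and without replicate 3 of cKO Ly6Chi OC that of Col8a1 was at least 130-fold. The 2 genes called lower were Col4a5, at -1.01 ± 0.13, and Col15a1, at -0.74 ± 0.14. Col4a5 had 28 to 34.9 CPM in the cKO Ly6Chi cultures. For Col27a1 the difference was -0.01 ± 0.23 (SE, adjusted p = 1, limma). Against Ly6Cint 25 chain genes were higher and 4 lower, where 24.7% of all genes were called, 14% higher and 10.7% lower. The largest positive differences were Col1a2 at 7.25, Col1a1 at 6.88, Col5a2 at 5.14, Col6a1 at 4.92, Col5a1 at 4.64 and Col6a2 at 4.53. The 4 lower were Col15a1 at -1.28, Col27a1 at -0.64, Col19a1 at -0.63 and Col4a5 at -0.51, and Col27a1 was not called when any of 5 of the 6 compared libraries was left out. With only the compared libraries in the fit Col6a3 was not called against either subset (adjusted p = 0.056 and 0.22, limma).

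In WT osteoclast cultures type I chains were again higher in the Ly6Cneg cells. Against Ly6Chi 12 chain genes were higher in Ly6Cneg OC and 4 lower, where 19% of all genes were called, 10.9% higher and 8.12% lower. Against Ly6Cint 10 were higher and 3 lower, where 13.6% of all genes were called, 8.11% higher and 5.44% lower. Col1a2 had 4.82 and 1.95 CPM in WT Ly6Cneg OC, against 0.0246, 0.184 and 0.0987 CPM in WT Ly6Chi OC. The groups did not overlap, and the difference was 2.43 ± 0.30 (SE, adjusted p = 2e-07, limma). Col1a1 differed by 2.18 ± 0.42 (SE, adjusted p = 0.00037, limma), or 22.9-fold in pooled CPM and 10.6-fold without replicate 1 of WT Ly6Cneg OC, against 35.8-fold without replicate 2. It was not called with only the compared libraries in the fit (adjusted p = 0.053, limma). Col3a1 at 2.04, Col5a2 at 1.98, Col12a1 at 1.59 and Col9a1 at 1.41 came next, and Col5a2 was not called with only the compared libraries (adjusted p = 0.065, limma). These 4 were above the olfactory receptor threshold in neither group. The olfactory receptors themselves averaged 0.0191 RPKM in WT Ly6Cneg OC and 0.00454 RPKM in WT Ly6Chi OC, and the part of this in the 4 differences was not tested. Col27a1 was lower by far, at -3.04 ± 0.25 (SE, adjusted p = 5.8e-10, limma), followed by Col20a1 at -1.33, Col15a1 at -0.84 and Col18a1 at -0.45. Col18a1 was not called on log2(normalized reads + 1) (adjusted p = 0.051, limma), nor without Ly6Chi replicate 3, Ly6Cneg replicate 1 or Ly6Cneg replicate 2 (adjusted p = 0.050, 0.080 and 0.073, limma). Against Ly6Cint, Col1a2 at 2.40, Col1a1 at 2.20, Col3a1 at 2.04, Col6a3 at 1.85, Col8a1 at 1.69 and Col12a1 at 1.67 led the higher genes, and the lower were Col27a1 at -2.39, Col20a1 at -1.07 and Col15a1 at -1.0. Col6a3 was not called there by voom, with only the compared libraries or without replicate 1 of WT Ly6Cneg OC (adjusted p = 0.092, 0.088 and 0.11, limma). Of the higher genes named there, Col3a1, Col6a3, Col8a1 and Col12a1 were above the olfactory receptor threshold in neither group. The olfactory receptors averaged 0.0191 RPKM in WT Ly6Cneg OC and 0.00459 RPKM in WT Ly6Cint OC, and the part of this was not tested. These counts rest on 2 WT Ly6Cneg libraries. Without replicate 1, which had more type I reads, 7 chain genes were called against Ly6Chi and 6 against Ly6Cint. Under quantile normalization 6 chain genes were higher and 4 lower against Ly6Chi.

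The comparison of osteoclast cultures with BMM of the same genotype and subset set day 4 with RANKL against day 0. No group had 4 days of culture without RANKL, so RANKL and time in culture cannot be told apart. Col27a1, Col15a1 and Col18a1 rose in all 6 such comparisons and Col11a2 fell in all 6. Col27a1 had 2.62, 4.57 and 2.56 CPM in cKO Ly6Cneg BMM and 1.38 and 1.23 CPM in WT Ly6Cneg BMM, all below the osteoclast values above. It rose by 3.45 in cKO Ly6Cneg, 1.49 in WT Ly6Cneg, 4.07 and 5.07 in cKO and WT Ly6Chi, and 4.95 and 4.11 in cKO and WT Ly6Cint cells on the log2 scale. Col15a1 rose by 1.41 to 3.29 and Col18a1 by 1.64 to 2.55 over the 6 comparisons. Col11a2 had 3.54, 2.55 and 4.33 CPM in cKO Ly6Cneg BMM and 10.8 and 9.04 CPM in WT Ly6Cneg BMM, and its differences were -0.40 in cKO Ly6Cneg cells, where the median of all genes was -0.36, and -1.18 in WT Ly6Cneg cells.

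Col1a1 was higher in osteoclast cultures than in BMM in Ly6Cneg cells labelled cKO and lower in Ly6Chi and Ly6Cint cells of both genotypes. In cKO Ly6Cneg cells 15 chain genes were higher in OC and 8 lower, where 42.6% of all genes were called, 14.5% higher and 28% lower. Col1a1 had 8.34, 10.7 and 21.8 CPM in cKO Ly6Cneg BMM, so its osteoclast libraries were all higher, by 3.96 ± 0.38 (SE, adjusted p = 6.5e-09, limma). Col1a2 at 3.83, Col27a1 at 3.45, Col6a2 at 3.13, Col6a1 at 3.01 and Col5a1 at 3.0 followed. The genes called lower were led by Col9a1 at -1.72, Col6a5 at -1.29, Col13a1 at -1.20, Col8a2 at -1.02, Col4a4 at -0.84 and Col4a3 at -0.76, none of them above 1.33 CPM in any of these 6 libraries. Of the 6, Col8a2 was above the olfactory receptor threshold in cKO Ly6Cneg BMM, and the other 5 were above it in neither group. The olfactory receptors averaged 0.0119 RPKM in cKO Ly6Cneg OC and 0.0560 RPKM in cKO Ly6Cneg BMM, and the part of this in these differences was not tested. The median of all genes was -0.36 here. Under quantile normalization the split was 16 higher and 3 lower, and the share of higher genes among all calls was 52.4%, against 34.1% without it.

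In WT Ly6Cneg cells 6 chain genes were higher in OC and 1 lower, where 12.2% of all genes were called, 6.55% higher and 5.69% lower. The higher ones were Col15a1 at 2.40, Col18a1 at 2.32, Col4a5 at 1.93, Col27a1 at 1.49, Col4a6 at 1.27 and Col4a2 at 0.95, and the lower was Col11a2. Col1a1 had 2.39 and 0.569 CPM in WT Ly6Cneg BMM, which overlaps its WT Ly6Cneg OC values, and its difference of 0.92 ± 0.46 was not called (SE, adjusted p = 0.27, limma). In cKO Ly6Chi cells 6 chain genes were higher and 20 lower, where 41.8% of all genes were called, 15.5% higher and 26.3% lower. In WT Ly6Chi cells 4 were higher and 15 lower, where 34.1% of all genes were called, 13.7% higher and 20.4% lower. In cKO Ly6Cint cells 6 were higher and 26 lower, where 48.7% of all genes were called, 16.4% higher and 32.3% lower. In WT Ly6Cint cells 7 were higher and 9 lower, where 28.4% of all genes were called, 13.1% higher and 15.4% lower. Under quantile normalization the splits were 7 and 14 in cKO Ly6Chi, 6 and 10 in WT Ly6Chi, 6 and 17 in cKO Ly6Cint and 8 and 7 in WT Ly6Cint cells, and the share of higher genes among all calls was 49.0% against 37.1% without it in cKO Ly6Chi and 48.2% against 33.6% in cKO Ly6Cint cells. The olfactory receptors averaged 0.0206 RPKM in BMM and 0.00274 RPKM in OC of cKO Ly6Chi cells, and 0.0159 and 0.00454 RPKM in WT Ly6Chi cells. For Ly6Cint cells they averaged 0.0292 and 0.00313 RPKM in cKO and 0.00973 and 0.00459 RPKM in WT. Their threshold was passed by 7 chain genes in cKO Ly6Chi BMM, 8 in cKO Ly6Cint BMM and 11 in each of these WT BMM groups. The part of this in the lower counts was not tested. Col1a1 fell by 2.92 and 1.29 in cKO and WT Ly6Chi cells and by 1.97 and 2.32 in cKO and WT Ly6Cint cells.

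The tests of the difference itself gave 12 chain genes with a higher and 6 with a lower osteoclast minus BMM change in cKO than in WT Ly6Cneg cells, where 17.3% of all genes were called, 8.58% upwards and 8.71% downwards. Col6a2 at 3.22, Col6a1 at 3.08, Col1a1 at 3.04, Col1a2 at 2.99 and Col5a1 at 2.74 led the higher side, and Col4a5 at -2.51 the lower. With only the compared libraries in the fit Col6a1 and Col6a2 were not called (adjusted p = 0.051 and 0.066, limma), nor was Col6a1 without replicate 2 of WT Ly6Cneg OC (adjusted p = 0.071, limma). Between Ly6Cneg and Ly6Chi cells the change differed for 13 chain genes upwards and 5 downwards in cKO, where 16.2% of all genes were called, 7.79% upwards and 8.39% downwards. In WT it differed for 7 upwards and 1 downwards, where 19.6% of all genes were called, 9.9% upwards and 9.75% downwards. The WT count includes Col1a1, which was not called without replicate 1 of WT Ly6Cneg OC (1.67, adjusted p = 0.088, limma) or replicate 2 of WT Ly6Cneg BMM (1.68, adjusted p = 0.088, limma).

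Before RANKL, in BMM, the type I chains were already higher in Ly6Cneg cells labelled cKO. Col1a2 had 8.11, 11.2 and 19.4 CPM in cKO Ly6Cneg BMM, against 1.43 and 0.878 CPM in WT Ly6Cneg BMM, and Col1a1 had 8.34, 10.7 and 21.8 CPM, against 2.39 and 0.569 CPM. For both genes the groups did not overlap, and the differences were 2.14 ± 0.30 (SE, adjusted p = 3.2e-06, limma) and 2.13 ± 0.42 (SE, adjusted p = 0.00062, limma). Of the 44 chain genes 18 were higher and 1 lower in cKO Ly6Cneg BMM, where 23.1% of all genes were called, 13.6% higher and 9.42% lower. The median difference was 0.88 over the chain genes and 0.27 over all genes, and under quantile normalization the split was 14 higher and 2 lower. The count of 19 fell to 10 without WT replicate 2 and to 12 without cKO replicate 2. The highest were Col5a2 at 2.25, Col4a5 at 2.24, Col1a2, Col1a1, Col4a6 at 1.84 and Col9a1 at 1.48, and the lower was Col11a2 at -1.02. Col9a1 was above the olfactory receptor threshold in no group. The stroma markers listed further on summed to 26.8 to 44.9 CPM in cKO and 9.87 to 11.9 CPM in WT Ly6Cneg BMM, and the olfactory receptors averaged 0.0560 and 0.0156 RPKM. Their part in these differences was not tested. Col4a5 had 22.4, 19.6 and 38.9 CPM in cKO Ly6Cneg BMM, against 2.56 and 3.27 CPM in WT Ly6Cneg BMM, with no overlap, and was the chain gene with the highest mean RPKM in that cKO group.

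In Ly6Cint BMM 24 chain genes were higher and 3 lower in cKO, where 39.7% of all genes were called, 25% higher and 14.7% lower. Here the same stroma markers summed to 37.4 to 51.3 CPM in cKO and 8.84 to 10.7 CPM in WT, the olfactory receptors averaged 0.0292 RPKM in cKO and 0.00973 RPKM in WT, and their part was not tested. In Ly6Chi BMM 7 were higher and 7 lower, where 29.7% of all genes were called, 14.4% higher and 15.3% lower, led by Col4a5 at 2.11 and Col18a1 at -1.96. Within cKO BMM, Ly6Cneg cells had 18 chain genes higher and 1 lower against Ly6Chi, where 27% of all genes were called, 18.8% higher and 8.22% lower. Against Ly6Cint 15 were higher and 3 lower, where 27.5% of all genes were called, 17.4% higher and 10.1% lower. Col5a2 differed by 2.76 from Ly6Chi and 2.36 from Ly6Cint, and Col1a2 by 2.15 and 2.13. Within WT BMM the counts were 1 higher and 5 lower against Ly6Chi, where 20.6% of all genes were called, 10.6% higher and 10% lower. Against Ly6Cint they were 9 higher and 4 lower, where 23% of all genes were called, 12.2% higher and 10.8% lower. Under quantile normalization the last split was 4 higher and 5 lower, and that of Ly6Cint BMM by genotype was 15 higher and 5 lower. The share of higher genes among all calls was then 51.5% against 63.0% for Ly6Cint BMM by genotype, 46.7% against 59.2% for Ly6Cneg BMM by genotype, and 55.9% against 69.6% for cKO BMM Ly6Cneg against Ly6Chi.

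Partner chains were not always found together. In WT Ly6Cint BMM, Col1a1 had 3.79, 3.05 and 3.46 CPM while Col1a2 had 0.118, 0.18 and 0.0736 CPM, and per kilobase of exon Col5a1 was 11.5 to 18.6 times Col5a2. In cKO Ly6Cneg BMM the Col1a1 to Col1a2 ratio was 1.8 to 2.13 and the Col5a1 to Col5a2 ratio 0.187 to 0.276.

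**Figure D4:**
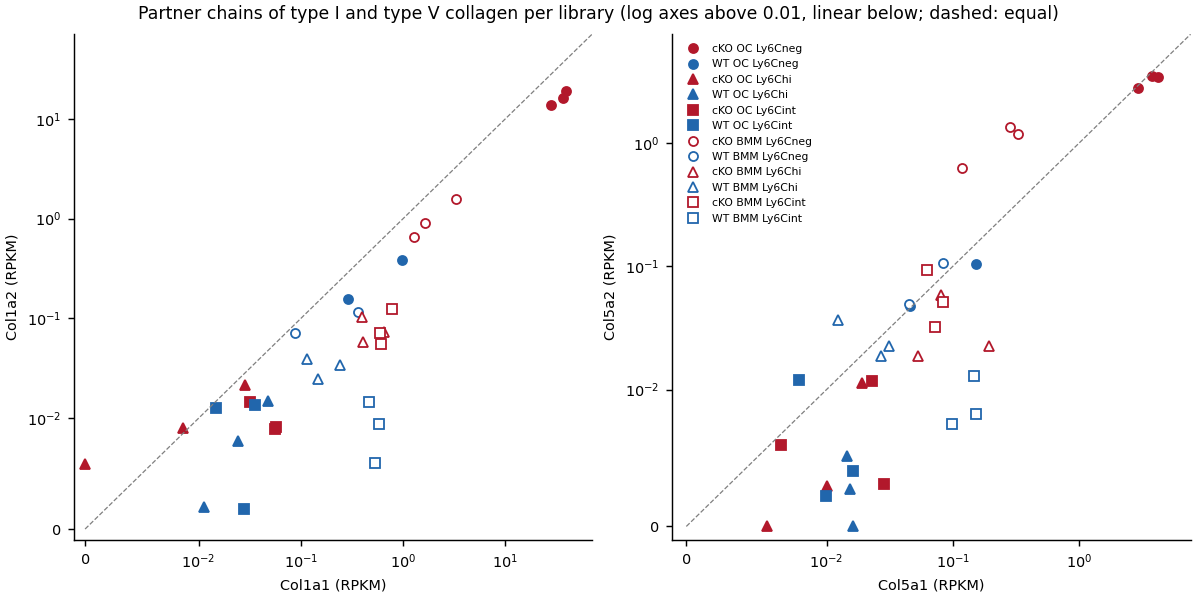
RPKM of Col1a2 against Col1a1 and of Col5a2 against Col5a1, 1 point per library (red cKO and blue WT, circles Ly6Cneg, triangles Ly6Chi, squares Ly6Cint, filled osteoclast cultures and open macrophages, both axes logarithmic above 0.01 and linear below, dashed line equal levels). The cKO Ly6Cneg osteoclast libraries lie at the upper right with a type I ratio of 2.03 to 2.29, while the WT Ly6Cint macrophages have Col1a1 at 32.2 to 89.0 times Col1a2.

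Most genes of the enzymes that modify, trim and cross-link collagen were higher in cKO Ly6Cneg osteoclast cultures. Of 12 secretion, propeptide and cross-linking genes 11 were higher in cKO than in WT and 0 lower, with a median difference of 1.66, where 17.1% of all genes were called, 9.53% higher and 7.52% lower. They summed to 216 to 280 CPM in cKO Ly6Cneg OC and 54.0 to 56.8 CPM in WT Ly6Cneg OC. Sparc, a collagen-binding glycoprotein of bone, led with 67.6 to 102 CPM against 1.13 and 2.98 CPM and a difference of 4.35. Loxl2, a lysyl oxidase that cross-links fibres, rose by 3.0, Adamts2, which removes the amino propeptide, by 2.62, and Bmp1, which removes the carboxyl propeptide, by 2.41. Of 20 modifying and folding genes 13 were higher and 2 lower, with a median of 0.64. Serpinh1, the collagen chaperone Hsp47, had 18.6 to 37.2 CPM against 0.260 and 0.728 CPM and a difference of 3.91, followed by Fkbp10 at 2.90, Plod2, a lysyl hydroxylase, at 2.19 and P3h4 at 1.70. The lower genes were Colgalt1 and P3h3.

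Most genes that break down or bind collagen were also higher in cKO than in WT Ly6Cneg OC, against the same 17.1% of all genes called. The 9 degradation and uptake genes summed to 16019 to 20139 CPM in cKO and 2641 to 2835 CPM in WT Ly6Cneg OC, and every Ly6Chi and Ly6Cint osteoclast library was above both, at 23176 to 40378 CPM. Of the 9, 7 rose and 0 fell, with a median of 2.08, led by Ctsk, encoding cathepsin K, at 2.78, Mmp9 at 2.58, Mrc2, an uptake receptor, at 2.44 and Mmp8 at 2.36. Of 10 receptor genes 6 rose and 1, Itga1, fell. Oscar, a collagen receptor of osteoclasts, led at 2.76, then Ddr2, a collagen receptor kinase, at 2.65, Itga11 at 2.24 and Itga2 at 1.96. The median over all genes was -0.00 in this comparison.

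Against Ly6Chi in cKO OC the cross-linking genes had 9 higher and 1 lower and the modifying genes 8 and 2, where 23.5% of all genes were called. In WT OC the cross-linking genes had 5 higher and 1 lower, and the modifying genes 2 higher and 9 lower, where 19% of all genes were called.

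Markers of other cell types moved beside these genes, and their part in the collagen differences was not tested. The 16 fibroblast and bone marrow stroma markers summed to 95.9 to 134 CPM in cKO Ly6Cneg OC and 8.12 to 12.1 CPM in WT Ly6Cneg OC. They summed to 3.32 to 4.98 CPM in the other osteoclast cultures, 26.8 to 44.9 CPM in cKO Ly6Cneg BMM and 37.4 to 51.3 CPM in cKO Ly6Cint BMM. Of the 16, 8 were higher in cKO than in WT Ly6Cneg OC and 0 lower. Of all genes 17.1% were called in this comparison, 9.53% higher and 7.52% lower. The higher markers were led by Postn at 3.40, Acta2 at 3.18, Fbln2 at 2.55 and Loxl1 at 2.27, Loxl1 being in the cross-linking list too. Others stayed near 0, with Lum at 0 to 0.0299 CPM and Thy1 at 0.0523 to 0.0962 CPM in cKO Ly6Cneg OC. Against the same shares of all genes, 3 of 10 osteoblast and osteocyte markers were higher and 0 lower. The 3 were Ibsp at 2.43, Alpl at 2.12 and Sp7 at 1.88. Their sum was 30.7 to 34.5 CPM in cKO and 29.5 to 31.3 CPM in WT Ly6Cneg OC, most of it Runx2, while Bglap, Bglap2 and Omd, late osteoblast genes, had at most 3 reads in any cKO Ly6Cneg OC library. Cartilage markers summed to 5.37 to 6.19 CPM in cKO against 1.95 to 2.18 CPM in WT, with Comp at 1.22 and Matn1 at -0.84, and endothelial markers to 115 to 125 CPM against 102 to 113 CPM, with Vwf at 0.74 and Kdr at -1.45.

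The labelled cell type was checked on 9 osteoclast markers, all of which were higher in cKO than in WT Ly6Cneg OC. Of all genes 9.53% were called higher and 7.52% lower there. They summed to 21004 to 26301 CPM in cKO Ly6Cneg OC, 3535 to 3899 CPM in WT Ly6Cneg OC, and 31962 to 54406 CPM in the Ly6Chi and Ly6Cint osteoclast cultures. Within cKO OC 5 of the 9 were lower in Ly6Cneg than in Ly6Chi and 0 higher, where 14.4% of all genes were called higher and 9.08% lower. Of 6 monocyte and macrophage markers 4 were higher and 1, Ptprc at -0.69, lower in cKO Ly6Cneg OC than in WT.

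The genes outside the family whose group means ran most like Col1a1 over the 12 groups were Loxl2 (Pearson r = 0.965), Ddr2 (0.965), Bmp1 (0.961), Mxra8 (0.953), Itga11 (0.947), Fbln2 (0.942), Timp3 (0.940), Enah (0.938), Mrc2 (0.937) and Dpysl3 (0.936). Only genes with a group mean of at least 8 were ranked, and each gene named here, like Col1a1, had its highest group mean in cKO Ly6Cneg OC. The values therefore lean on that group. The 12 points are group means of the same libraries, and the values describe likeness of pattern alone. Loxl2, Ddr2, Bmp1, Itga11, Fbln2 and Mrc2 are in the lists above, which adds no separate evidence.

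Several chain genes lie next to each other. Col4a1 and Col4a2 lie head to head with their ends overlapping, Col4a3 and Col4a4 lie head to head 71 bases apart, and Col4a5 and Col4a6 head to head 1308 bases apart on chromosome X. Col4a5 and Col4a6 were both higher in cKO Ly6Cneg BMM. Col3a1 and Col5a2 lie tail to tail, 24.6 kb apart. Exons of Col4a1, Col4a2, Col4a3, Col5a1, Col6a4, Col9a3 and Col10a1 overlap another gene on the opposite strand, so their values are uncertain without a stated use of strand. Those of Col20a1 overlap a gene on the same strand, so its value is uncertain whatever the use of strand.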

How the data were processed

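The deposited table gives log2 values per gene and library, and the authors' transformation is not given in the sources used here. HISAT2, DESeq2 and deepTools, beside bcl2fastq 2.17.1, CASAVA 1.8.4 and build mm10, are listed without roles per the submitters' processing notes. The counting, annotation and use of strand are likewise not given there. Per the labels' protocols, RNA was total RNA from columns. The values form a ladder whose minimum is 0 reads, and 99.996% were whole reads within 0.05, with totals of 20.4 to 55.7 M reads per library. CPM and RPKM were computed from these reads, with exon lengths from GENCODE M21. Genes above 4.78 in at least 3 libraries, 38873 in all, were fitted with limma 3.58.1 (R 4.3.3) on the deposited values, with 12 group means, a trended robust prior and 22 residual degrees of freedom. Adjusted p-values were taken over all genes in each of 23 comparisons. The script was tested on simulated data. Named were the 12 chain genes with the highest mean in Ly6Cneg osteoclast cultures, the highest chain gene of each other group, up to 6 called chain genes per direction and comparison, up to 4 called genes of each list, and the 10 genes most like Col1a1 with a group mean of at least 8. The members and lists were chosen with earlier results of these data known. The voom fit on recovered reads, the pooled folds without single libraries and the olfactory receptor threshold were chosen after seeing the data. Python 3.11.15, numpy 2.4.6, pandas 2.3.3, scipy 1.17.1 and matplotlib 3.10.9 were used.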

Additional observations from a re-analysis of the deposited data

Results flagged for a closer look

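The change from BMM to osteoclast cultures differed between groups, by the test of the difference itself (limma, adjusted p under 0.05), for 18 chain genes between subsets in cKO, 8 between subsets in WT and 18 between genotypes. Of all genes 16.2%, 19.6% and 17.3% were called in these tests. Up to 6 with the largest difference in each direction are given below, as differences of log2 differences.

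In cells labelled cKO, the change in Ly6Cneg minus that in Ly6Chi cells was 6.88 for Col1a1, 5.13 for Col1a2, 4.40 for Col5a1, 3.85 for Col6a1, 3.63 for Col6a2 and 3.16 for Col16a1. It was -1.86 for Col4a6, -1.83 for Col4a5, -1.68 for Col4a2, -1.44 for Col15a1 and -0.72 for Col18a1. In WT cells it was 2.21 for Col1a1, 1.99 for Col3a1, 1.85 for Col9a1, 1.81 for Col1a2, 1.47 for Col19a1 and 1.37 for Col5a2, and -3.58 for Col27a1. Col5a2 was not called there under quantile normalization (adjusted p = 0.11, limma), with no trended or robust prior (adjusted p = 0.082, limma) or without any of 5 single libraries. These were WT Ly6Chi BMM replicate 2 or 3, WT Ly6Cneg BMM replicate 2, WT Ly6Chi OC replicate 3 and WT Ly6Cneg OC replicate 1, with adjusted p from 0.064 to 0.23 (limma). Col3a1, Col5a2 and Col9a1 were above the olfactory receptor threshold in no WT group. The olfactory receptors averaged 0.0156 and 0.0191 RPKM in WT Ly6Cneg BMM and OC, and 0.0159 and 0.00454 RPKM in WT Ly6Chi BMM and OC. The part of this in the WT values was not tested.

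In Ly6Cneg cells, the change in cKO minus that in WT was 3.22 for Col6a2, 3.08 for Col6a1, 3.04 for Col1a1, 2.99 for Col1a2, 2.74 for Col5a1 and 1.98 for Col6a3. It was -2.51 for Col4a5, -1.91 for Col9a1, -1.47 for Col4a2, -1.44 for Col4a6, -1.0 for Col4a3 and -0.99 for Col15a1. Col9a1 and Col4a3 were above the olfactory receptor threshold in no Ly6Cneg group. The olfactory receptors averaged 0.0560 and 0.0119 RPKM in cKO Ly6Cneg BMM and OC, and 0.0156 and 0.0191 RPKM in WT Ly6Cneg BMM and OC. The part of this in these differences was not tested. Col6a3 was not called by voom or with only the compared libraries (adjusted p = 0.22 and 0.27, limma). Without replicate 3 of cKO Ly6Cneg OC it was 1.21 and not called (adjusted p = 0.052, limma), nor was it without WT Ly6Cneg BMM replicate 1 or WT Ly6Cneg OC replicate 2 (adjusted p = 0.11 and 0.14, limma).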

How the results depend on the processing

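The 99 named called differences kept their direction in all 1568 alternatives and their call in 1498, and 70 were no longer called. For the 33 named differences not called, 21 of 508 alternatives gave a call and 32 changed sign, none of these with a call. Of the counts of chain genes, 324 stayed within 1.5 times and 27 did not, and the cause was not tested. With only the compared libraries the count was 16 (26 as reported) for cKO Ly6Chi OC against BMM, 11 (19) for cKO BMM Ly6Cneg against Ly6Chi and 8 (14) for cKO against WT Ly6Chi BMM. With sample weights it was 20 (13) for WT OC Ly6Cneg against Ly6Cint, 10 (19) for cKO BMM Ly6Cneg against Ly6Chi, 8 (4) for cKO against WT Ly6Chi OC and 6 (14) for cKO against WT Ly6Chi BMM. Quantile normalization gave 10 (16) for WT OC Ly6Cneg against Ly6Chi, and voom gave 9 (14) for cKO against WT Ly6Chi BMM. With 1 library left out, counts ran from 7 to 14 for WT OC Ly6Cneg against Ly6Chi, 6 to 14 for WT OC Ly6Cneg against Ly6Cint, 7 to 11 for WT BMM Ly6Cneg against Ly6Cint, 5 to 7 for cKO against WT Ly6Cint OC, 10 to 20 for Ly6Cneg BMM, 7 to 12 for Ly6Chi BMM and 17 to 27 for Ly6Cint BMM by genotype. They ran from 4 to 9 for the WT difference of changes between subsets and 11 to 17 for that between genotypes. The lowest came without WT Ly6Cneg OC replicate 1 (7, 6 and 4), WT Ly6Cneg OC replicate 2 or WT Ly6Cneg BMM replicate 1 (11), WT Ly6Cneg BMM replicate 1 (7) or 2 (10), WT Ly6Chi BMM replicate 1 (7) and cKO Ly6Cint BMM replicate 1 (17). The count for Ly6Cint OC by genotype was 5 without cKO replicate 1 or 3 or WT replicate 3, that for Ly6Cneg BMM was 12 without cKO replicate 2, and that for Ly6Chi BMM was 9 without cKO replicate 3. The WT difference between subsets had 5 without WT Ly6Chi BMM replicate 2 or 3, WT Ly6Chi OC replicate 3 or WT Ly6Cneg BMM replicate 2. No paired analysis was possible because the serial numbers in the titles do not tie samples of different groups together. Genes with a few reads sit at the floor of the scale, where depth limits what can be seen.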
